A study of Mus musculus with 9 samples.

Results

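The genes described here are 39 genes of DNA replication and deoxynucleotide supply. They are subunits of the replication machinery, enzymes that make its precursors and 3 regulators of entry into S phase. The choice was by name, with earlier results of these data known, and other such subunits and enzymes stand in further lists below. All non-control probes bearing 1 of these names were taken, which gave 72 of the 56605 probes on the array and 39 of 37008 gene names. After the filter on dim probes, 67 probes and 38 genes were measured, of 23965 genes in all. The gene without a usable value was Ccne2, for cyclin E2, whose single probe was above background on 1 quiescent array, 2 control-siRNA arrays and 2 Cav1-siRNA arrays.

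Each group had 3 single-colour arrays of RNA from primary hepatic stellate cells, the vitamin A-storing pericytes of the liver, taken from C57BL/6 mice that were 10 weeks old. The quiescent group had no treatment, and the labels give no harvest time for it. The other groups had been kept on hard plates for 7 days in serum-containing medium and then received siRNA overnight at 5 nM, either a negative control sequence or one directed at Cav1, the gene of caveolin-1. They carry the label of activated cells, and the study asked what loss of Cav1 changes in them. The labels name no separate animals or cultures for the arrays of a group, so the spread behind each p-value is that between these samples and may be technical.

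Before S phase, the origin recognition complex, Cdc6 and Cdt1 load the Mcm2 to Mcm7 ring onto DNA, and Cdc45 and the GINS complex later turn that ring into a working helicase. Primase and DNA polymerase alpha start new strands, replication factor C loads the sliding clamp Pcna, and polymerases delta and epsilon extend them, while ribonucleotide reductase and thymidylate synthase supply deoxynucleotides. Much of this machinery is under E2F control, and stellate cells, which rest outside the cell cycle in healthy liver, are known to divide once activated.

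Levels below are log2 signals relative to the 75th percentile of the array, and differences are differences of such levels, so 1 unit is a doubling. Levels of different probes were not compared with each other. Cav1 itself had levels from -5.84 to -4.87 in quiescent cells, from -1.34 to -1.09 with control siRNA and from -3.07 to -2.88 with Cav1 siRNA, with no overlap of the groups. On quiescent arrays 2 and 3 it lay below the lowest signal above background there, -4.08 and -5.41. It was lower in the Cav1-siRNA cells than in control-siRNA cells by 1.76 log2 units (SE 0.24, n = 3 per group), which is 29.4% of the control-siRNA signal, with an unadjusted p of 4.83e-05 and an adjusted p of 0.145 in limma. The quiescent RNA held markers of other liver cells. The summed linear signal of 8 hepatocyte markers, in units of the array's 75th percentile, ran from 990 to 1222 in quiescent cells but from 0.105 to 0.124 in control-siRNA cells, where Ttr, Apoa1, Fbp1, Pck1 and Cps1 were above background on none. All 8 markers of sinusoidal endothelium (304 to 513 against 0.535 to 0.629), all 8 of Kupffer cells and macrophages (215 to 357 against 8.03 to 9.19, with Clec4f, Vsig4 and Timd4 above background on no control-siRNA array), all 8 of lymphocytes and neutrophils (23.1 to 54.2 against 0.380 to 0.459, with Cd79a, Gzmb, S100a9 and Cd8a above background on none) and 2 of 3 measured erythroid markers (187 to 277 against 1.12 to 1.52) were also lower in control-siRNA cells. Of 6 measured markers of mesothelium and portal fibroblasts, 5 were higher, with a sum of 1.26 to 1.78 on quiescent and 145 to 164 on control-siRNA arrays, and of 5 cholangiocyte markers 2 were higher and 2 lower (4.95 to 7.22 against 27.4 to 33.2, with Spp1 on both this list and that of stellate activation). All 8 stellate activation markers were higher (11.4 to 29.7 against 782 to 799), and of 7 measured stellate quiescence markers 4 were lower and 1 higher (26.9 to 73.6 against 48.9 to 51.0), with the defining marker Lrat above background on no control-siRNA array. The part of this change in cell mixture in the results below was not tested, and in such bulk samples fewer cells of a type and less RNA per cell cannot be told apart.

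Promoters of some helicase, licensing and helicase activation genes are shown first, because E2F factors are known regulators of much of this machinery. Whether E2F had a part in the differences below was not tested. RefSeq windows (GRCm38.p6) were found for 31 of the 39 genes. The letters TTTCCCGC, TTTGGCGC, TTTCGCGC or TTTGCCGC, forms of the E2F site, were searched on both strands in the 250 bases before the start. They stood in 8 of the 31 genes (25.8%), namely Cdc6, Gins3, Mcm5, Mcm6, Mcm7, Orc1, Pola1 and Rfc3. Among all 27025 genes with windows of that length 2.16% had them, and among the 13653 other tested genes with a window 3.26% did. The 6 matching genes with the largest differences between control-siRNA and quiescent cells are printed 5′ to 3′ along the gene's strand, with those letters in capitals. Their windows are Orc1 chr4:108579204-108579453 (+), Cdc6 chr11:98907901-98908150 (+), Mcm6 chr1:128359706-128359955 (-), Mcm7 chr5:138171884-138172133 (-), Mcm5 chr8:75109259-75109508 (+) and Gins3 chr8:95633309-95633558 (+).
Orc1: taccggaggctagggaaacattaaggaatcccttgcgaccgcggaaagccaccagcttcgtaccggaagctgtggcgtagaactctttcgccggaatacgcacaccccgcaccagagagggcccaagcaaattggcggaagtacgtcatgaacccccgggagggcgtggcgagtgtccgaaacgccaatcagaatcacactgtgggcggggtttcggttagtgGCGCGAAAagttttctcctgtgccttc
Cdc6: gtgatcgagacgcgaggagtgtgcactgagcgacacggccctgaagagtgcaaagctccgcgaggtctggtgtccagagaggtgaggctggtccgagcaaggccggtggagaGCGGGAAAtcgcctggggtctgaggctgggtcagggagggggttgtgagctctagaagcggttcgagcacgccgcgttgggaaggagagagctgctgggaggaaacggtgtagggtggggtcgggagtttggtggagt
Mcm6: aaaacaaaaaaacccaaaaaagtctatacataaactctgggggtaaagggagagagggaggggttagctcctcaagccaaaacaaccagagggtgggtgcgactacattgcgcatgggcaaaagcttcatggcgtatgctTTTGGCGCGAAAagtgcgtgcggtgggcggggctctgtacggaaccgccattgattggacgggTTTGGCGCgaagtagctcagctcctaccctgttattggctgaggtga
Mcm7: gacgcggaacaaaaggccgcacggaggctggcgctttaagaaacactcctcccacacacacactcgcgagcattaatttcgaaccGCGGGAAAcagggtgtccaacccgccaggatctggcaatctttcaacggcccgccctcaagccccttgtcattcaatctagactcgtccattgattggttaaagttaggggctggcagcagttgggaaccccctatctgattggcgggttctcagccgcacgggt
Mcm5: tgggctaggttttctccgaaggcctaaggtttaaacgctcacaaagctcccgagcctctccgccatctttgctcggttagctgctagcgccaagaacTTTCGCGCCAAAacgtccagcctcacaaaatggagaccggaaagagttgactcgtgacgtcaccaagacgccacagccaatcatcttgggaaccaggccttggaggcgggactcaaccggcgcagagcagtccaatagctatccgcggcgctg
Gins3: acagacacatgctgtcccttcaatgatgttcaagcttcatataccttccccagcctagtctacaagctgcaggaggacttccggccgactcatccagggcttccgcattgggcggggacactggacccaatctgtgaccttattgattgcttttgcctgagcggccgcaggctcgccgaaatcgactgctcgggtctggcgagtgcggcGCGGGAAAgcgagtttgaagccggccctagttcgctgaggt
In Mcm6 the capitals hold 3 matches, the first pair of which overlap and lie on opposite strands, and in Mcm5 they hold 2 overlapping matches on opposite strands. The match nearest to a start among these 6 was that of Orc1, from base -27 to base -20. The CCAAT box, bound by NF-Y, stood in 18 of the 31 genes (58.1%), against 37.5% of all genes and 39.6% of the other tested genes. The CHR letters TTTGAA or TTCGAA stood in 6 (19.4%), against 19.6% and 15.9%. These counts describe letters in a window and not bound sites.

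Most of the measured genes of the set had higher signal in the cultured control-siRNA cells than in quiescent cells. Of the 38 measured genes, 35 were higher in control-siRNA than in quiescent cells at an adjusted p under 0.05 in limma, where 42.1% of all 23965 genes were, and 1, Mcm10, was lower, where 26% of all genes were. Pola2 and Tk1 did not pass. Orc1 and Cdc45 were not above background on every quiescent array and entered the fit through the activated groups, a route that favours a higher value there. Among genes above background on all 9 arrays, 33 of 36 of the set were higher and 1 lower, beside 41.5% and 28.2% of 16819 genes. Over all genes 10089 calls were higher and 6239 lower, which became 7864 and 9141 with normexp background correction before the 75th percentile, while the set had 35 higher and 1 lower. The median log2 difference of the 38 genes was 2.08, against 0.32 over all genes tested. Differences of at least 1 log2 unit upward were called for 29 genes (28.9% of all genes) and of at least 2 for 20 genes (12.4%). In 35 genes all control-siRNA arrays lay above all quiescent arrays (42.8% of all genes), and in 1 gene all lay below (27%).

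**Figure D1:**
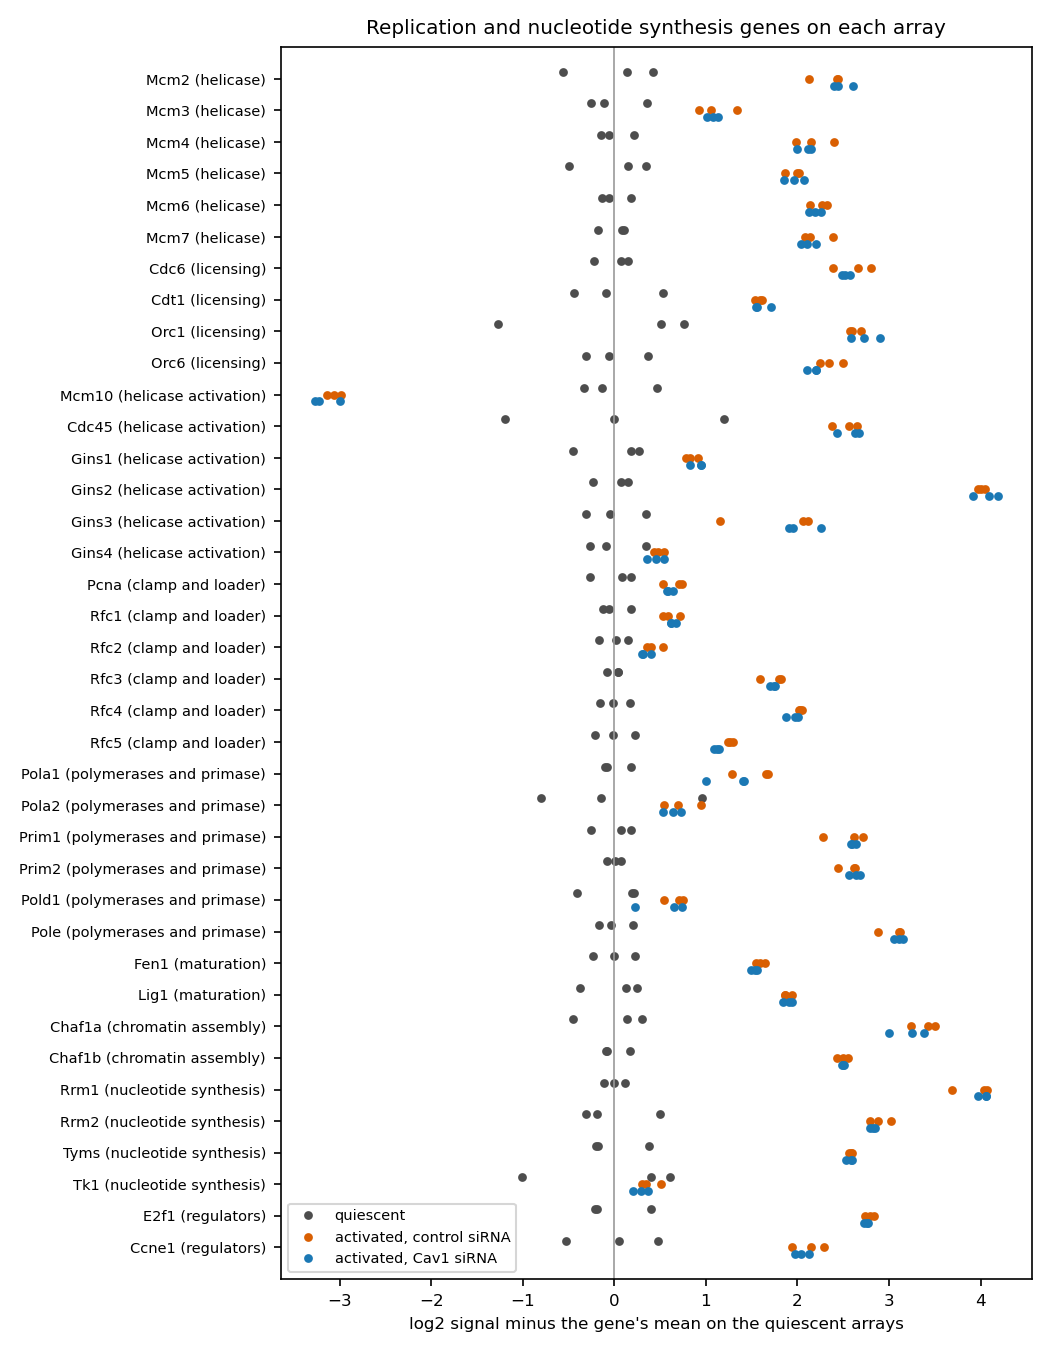
Each point is 1 array, grouped as quiescent (grey), control siRNA (orange) and Cav1 siRNA (blue), and the x axis gives the log2 signal minus the mean of the 3 quiescent arrays for that gene, 1 row per gene. The control-siRNA and Cav1-siRNA points lie together and to the right of the quiescent points in all rows but Mcm10, which lies near -3, and Pola2 and Tk1, where they overlap the quiescent points.

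The replicative helicase was called higher in all 6 subunits, by a median of 2.19 log2 units. Mcm2, a subunit of the ring and a marker of this gene set (probe at chr6:88833619-88833678, mm9), had levels of 0.03, -0.26 and -0.95 in quiescent cells, 1.74, 2.04 and 2.05 with control siRNA and 2.01, 2.05 and 2.22 with Cav1 siRNA. The quiescent arrays were all below the others, and the log2 difference of control-siRNA from quiescent cells was 2.33 (SE 0.24, adjusted p = 2.53e-05). For Mcm6, whose promoter carries the overlapping E2F letters above (probe at chr1:130228178-130228237, mm9), the levels were 2.47, 2.79 and 2.54 in quiescent cells, 4.92, 4.73 and 4.87 with control siRNA and 4.86, 4.78 and 4.73 with Cav1 siRNA. The groups of activated cells overlapped each other and not the quiescent group, and the difference was 2.24 (SE 0.14, adjusted p = 7.87e-07). Mcm4, Mcm5 and Mcm7, which complete the ring with Mcm3, were higher by 2.18, 1.96 and 2.20 log2 units. Mcm3 had the smallest difference of the 6, 1.11 (SE 0.19, adjusted p = 6.91e-04), and its level ran from 1.89 to 2.51 on quiescent and from 3.07 to 3.48 on control-siRNA arrays.

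All 4 licensing genes were called higher, by a median of 2.49 log2 units. Cdc6, the ATPase that helps load the ring (probe at chr11:98782801-98782860, mm9), had levels of -3.86, -3.79 and -4.16 in quiescent, -1.55, -1.27 and -1.14 in control-siRNA and -1.45, -1.42 and -1.37 in Cav1-siRNA cells. Its quiescent levels lay well apart from the others, with a log2 difference of 2.62 (SE 0.16, adjusted p = 7.55e-07). Orc1, the largest subunit of the origin recognition complex, was dim in quiescent cells, with levels of -4.59, -4.34 and -6.38 and a probe above background on 1 of the 3 arrays. On control-siRNA arrays its levels were -2.51, -2.53 and -2.41, all above background, and the log2 difference was 2.62 (SE 0.45, adjusted p = 7.39e-04). Its other kept probes gave 0.99, which was called, and 1.63, which was not (adjusted p = 0.0956 over all kept probes). Orc6, the smallest subunit of that complex, was higher by 2.36 log2 units (SE 0.18) and Cdt1, the partner of Cdc6 in loading, by 1.58 (SE 0.23).

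Among the 6 genes that turn the loaded ring into a working helicase, 5 were called higher and 1 lower. The differences ran from -3.06 to 4.01, the lower end being that of Mcm10, whose probes disagreed as described below. Gins2, a subunit of the GINS complex (probe at chr8:123105259-123105318, mm9), had levels of -1.87, -1.95 and -2.26 in quiescent cells, 1.95, 1.98 and 2.02 in control-siRNA cells and 2.16, 1.89 and 2.07 in Cav1-siRNA cells. This was the largest difference among the 38 genes, 4.01 log2 units (SE 0.15, adjusted p = 3.34e-08). The other subunits of the same complex had smaller log2 differences, 1.77 for Gins3, 0.84 for Gins1 and 0.49 for Gins4. On the array scale the levels of Gins4 were 1.85, 1.68 and 2.28 in quiescent and 2.42, 2.48 and 2.36 in control-siRNA cells, which did not overlap but lay close (adjusted p = 0.0314), and its second probe gave a difference of 0.13 that was not called. Gins3 levels were 0.74, 0.08 and 0.34 in quiescent cells and 1.54, 2.50 and 2.44 with control siRNA, where array 1 stood below the other 2. Cdc45, the partner of GINS and the ring, ranged from -5.20 to -2.80 on quiescent arrays, 2 of which were above background, and from -1.63 to -1.36 on control-siRNA arrays, a log2 difference of 2.53 (SE 0.49, adjusted p = 0.00141). Under other scalings and background corrections the differences of the dim genes Orc1, Cdc45 and Cdc6 were as small as 0.63, 1.12 and 1.27, all still called. Those of Gins2, Chaf1a and Pole were then as small as 3.44, 2.44 and 2.55.

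Mcm10, a scaffold that links the helicase to polymerase alpha, was the single gene called lower, and its probes disagreed. The brightest probe (chr2:4911845-4911904, mm9, listed under the RefSeq transcript) had levels of 4.11, 3.92 and 4.72 in quiescent, 1.26, 1.10 and 1.19 in control-siRNA and 0.98, 1.26 and 1.03 in Cav1-siRNA cells. It fell by 3.06 log2 units between quiescent and control-siRNA cells (SE 0.21, adjusted p = 1.53e-06), with no overlap of the groups. A second probe (chr2:4920226-4920285, mm9, listed under an Ensembl transcript) had levels of -3.47, -2.42 and -3.01 in quiescent, -2.18, -1.95 and -1.98 in control-siRNA and -2.48, -2.40 and -2.43 in Cav1-siRNA cells. That probe was higher in control-siRNA cells by 0.93 log2 units (SE 0.24, adjusted p = 0.00734 over all kept probes), so no direction is settled for the Mcm10 gene. In RefSeq's gene order the neighbour Optn, which encodes the autophagy receptor optineurin, was lower by 1.78 log2 units (SE 0.17, adjusted p = 1.44e-05). The next gene, Ccdc3, had levels of -5.86, -6.39 and -6.44 in quiescent and -3.48, -3.79 and -3.82 in control-siRNA cells. Its quiescent levels were all below the lowest signal above background on their arrays (-5.41, -4.08 and -5.41), so no size is given.

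**Figure D2:**
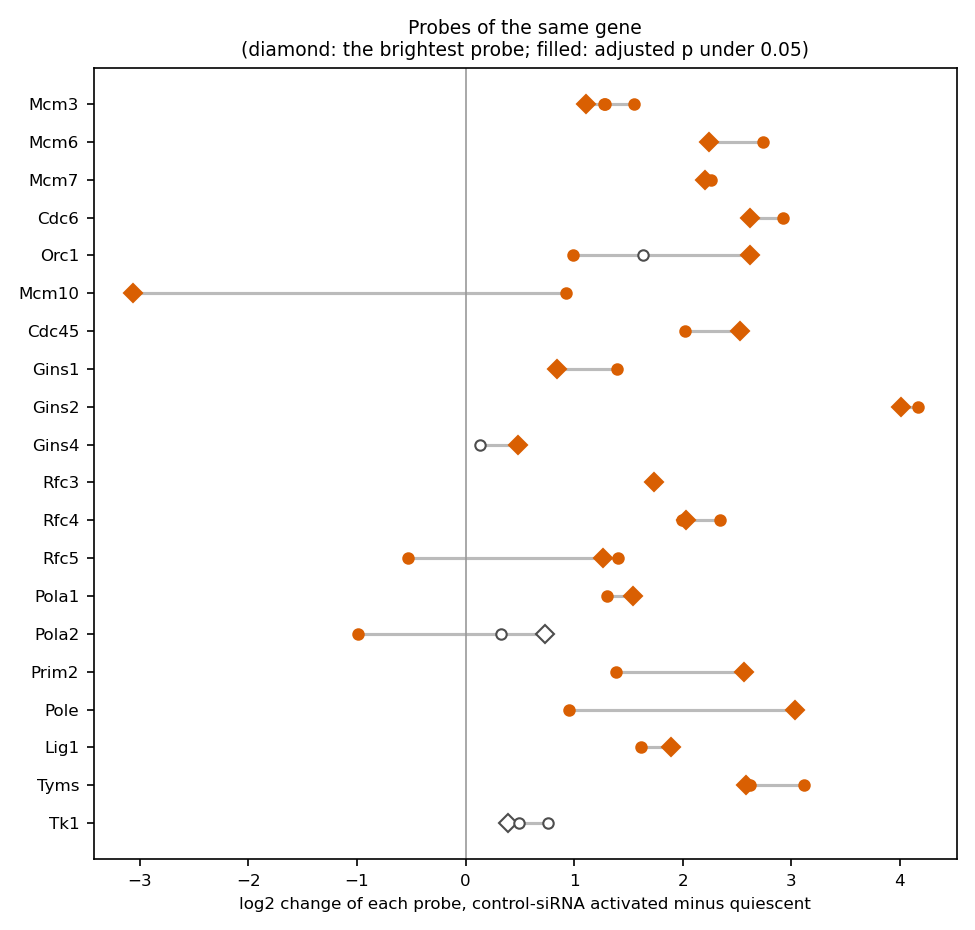
For the 20 genes with more than 1 kept probe, each marker is the log2 difference of 1 probe between control-siRNA and quiescent cells on the x axis, a diamond for the brightest probe and circles for the others, filled where the adjusted p was under 0.05. The probes of Mcm10, Rfc5 and Pola2 fall on both sides of 0, while in 14 genes all kept probes were called higher.

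Over all 67 kept probes of the set, 56 were called higher, 3 lower and 8 were not called, where 43% of all 36817 kept probes were higher and 25% lower. In 20 genes with more than 1 kept probe, 14 had all probes called higher and 3 had probes of opposite sign. Some probes in these counts, of Cdc45, Cdc6, Mcm6, Mcm7, Pole, Orc1 and Pola2, were not above background on every quiescent array. They entered through the activated groups, a route that favours a higher value there. In Rfc5, a subunit of the clamp loader, a probe on an Ensembl transcript fell by 0.53 log2 units (adjusted p = 0.0293 over all kept probes) while the other probes were higher by 1.27 and 1.40. For Pole, the catalytic subunit of polymerase epsilon, the probe differences were 3.04 and 0.95, the same direction at unequal size. Thymidylate synthase, Tyms, gave 2.58, 2.62 and 3.12 with its 3 probes.

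The clamp and its loader had the lowest median of any role. All 6 of these genes were called higher, with a median log2 difference of 0.96. Pcna, the sliding clamp (probe at chr2:132075420-132075557, mm9), had levels of 4.13, 4.24 and 3.78 in quiescent cells, 4.76, 4.57 and 4.79 in control-siRNA cells and 4.69, 4.63 and 4.64 in Cav1-siRNA cells. The quiescent arrays lay below all activated ones, and the difference between control-siRNA and quiescent cells was 0.66 log2 units (SE 0.15, adjusted p = 0.00428). In the loader, Rfc4 rose from 0.26, -0.08 and 0.07 to 2.11, 2.10 and 2.14, a difference of 2.03 (SE 0.13, adjusted p = 1.18e-06). Rfc3 and Rfc5 were higher by 1.74 and 1.27, whereas Rfc1, the large subunit, and Rfc2 were higher by 0.61 and 0.43. The differences of the 5 loader subunits were not tested against each other. With normexp and quantile scaling those of Rfc1 and Rfc2 were 0.40 and 0.21, and that of Rfc2 was then not called (adjusted p = 0.119).

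Of 6 polymerase and primase genes, 5 were called higher, with a median log2 difference of 2.04 over the 6. Pole had levels of -1.75, -1.51 and -1.89 in quiescent cells, 1.16, 1.39 and 1.41 with control siRNA and 1.34, 1.39 and 1.44 with Cav1 siRNA, a difference of 3.04 between control-siRNA and quiescent cells (SE 0.15, adjusted p = 1.67e-07). The primase subunits were higher by 2.54 log2 units for Prim1 (SE 0.17) and 2.56 for Prim2 (SE 0.13). Levels of Prim2 (probe at chr1:33510733-33510792, mm9) were -0.65, -0.72 and -0.80 in quiescent and 1.72, 1.90 and 1.91 in control-siRNA cells, far apart for their spread. Pola1, the catalytic subunit of polymerase alpha, was higher by 1.54 log2 units (SE 0.18) and Pold1, that of polymerase delta, by 0.66 (SE 0.21, adjusted p = 0.0202). Pola2, the accessory subunit of polymerase alpha, had quiescent levels of -2.42, -1.31 and -3.07 and control-siRNA levels of -1.32, -1.73 and -1.57, so that quiescent array 2 lay above all activated arrays and the other quiescent arrays below them. Its difference of 0.73 was not called (SE 0.38, 95% interval -0.12 to 1.58, adjusted p = 0.113). Without that array it was 1.21 (adjusted p = 0.00137), and 1 of its 4 probes was lower by 0.99 (adjusted p = 0.0276 over all kept probes).

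The genes of strand maturation and chromatin assembly were all called higher. Fen1, the nuclease that removes primer flaps, was higher by 1.60 log2 units (SE 0.15) and Lig1, the ligase that seals the fragments, by 1.89 (SE 0.17). Chaf1a, the large subunit of the factor that deposits histones behind the fork (probe at chr17:56206969-56207028, mm9), had levels of -2.83, -2.67 and -3.42 in quiescent, 0.27, 0.46 and 0.53 in control-siRNA and 0.03, 0.41 and 0.28 in Cav1-siRNA cells. Its quiescent arrays lay below all others by a wide margin, and the difference was 3.39 (SE 0.21, adjusted p = 8.87e-07). Chaf1b, the middle subunit of that factor, was higher by 2.49 (SE 0.13).

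Nucleotide supply held both the second largest and the smallest difference of the set, and 3 of its 4 genes were called higher. Rrm1, the large subunit of ribonucleotide reductase (probe at chr7:109617223-109617283, mm9), had levels of -0.10, -0.22 and -0.32 in quiescent, 3.47, 3.83 and 3.86 in control-siRNA and 3.84, 3.76 and 3.85 in Cav1-siRNA cells. The difference between control-siRNA and quiescent cells was 3.93 log2 units (SE 0.15, adjusted p = 3.69e-08). Rrm2, its small subunit and the other marker of the set (probe at chr12:25398824-25398883, mm9), had levels of 0.96, 1.77 and 1.08 in quiescent, 4.29, 4.06 and 4.15 in control-siRNA and 4.12, 4.06 and 4.09 in Cav1-siRNA cells. Every quiescent level was below every activated one, and the difference was 2.90 (SE 0.21, adjusted p = 2.22e-06). Tyms, which makes thymidylate anew, was higher by 2.58 (SE 0.17, adjusted p = 1.24e-06). Tk1, which salvages thymidine and is known to be high in S phase, had quiescent levels of 3.12, 1.71 and 3.33, control-siRNA levels of 3.24, 3.02 and 3.06 and Cav1-siRNA levels of 2.93, 3.09 and 3.01. Quiescent array 2 lay apart and the other quiescent arrays were above most activated ones. The Tk1 difference was 0.39 and not called (SE 0.37, 95% interval -0.44 to 1.22, adjusted p = 0.371), it was -0.12 without quiescent array 2 (adjusted p = 0.43), and none of its 3 kept probes was called.

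Both measured regulators were higher. E2f1, a transcription factor of the G1 to S transition (probe at chr2:154385798-154385857, mm9), had levels of -1.50, -2.11 and -2.09 in quiescent, 0.89, 0.94 and 0.84 in control-siRNA and 0.86, 0.83 and 0.88 in Cav1-siRNA cells. The activated arrays lay within a narrow band above the quiescent ones, with a log2 difference of 2.79 (SE 0.18, adjusted p = 9.90e-07). Ccne1, cyclin E1, the partner of Cdk2 at the entry into S phase, was higher by 2.13 (SE 0.24, adjusted p = 4.44e-05). The single probe of Ccne2 (chr4:11122185-11122244, mm9) had levels of -6.38, -3.24 and -6.85 in quiescent, -6.00, -5.51 and -5.77 in control-siRNA and -5.64, -5.99 and -5.43 in Cav1-siRNA cells, and it was not tested.

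Quiescent array 2 stood apart in the share of probes above background, 51.5% against 58.1 and 58.4% on the other quiescent arrays, and these shares ran from 60.1 to 69.0% on the arrays of activated cells. The median SD of a gene of the set was 0.32 within quiescent, 0.11 within control-siRNA and 0.066 within Cav1-siRNA cells, against 0.35, 0.16 and 0.12 over all genes. The quiescent group shared slide 1 with control-siRNA array 1, and all other arrays were on slide 2. Within slide 1, with 1 control-siRNA array assumed to vary like the quiescent ones, the median difference was 2.08, 37 of 38 genes kept a positive sign, and 22 were called higher and 1 lower. The calls lost there were those of Mcm3, Cdt1, Orc1, Cdc45, Gins1, Gins3 (1.15, adjusted p = 0.0945), Gins4, Pcna, Rfc1, Rfc2, Rfc5, Pola1 and Pold1. With the slide as a block the differences were those within slide 1, resting on the same control-siRNA array. The median over all genes was then 0.29. Gins4 and Pold1 lost their calls with that block.

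The same genes were then compared between Cav1-siRNA and control-siRNA cells, to see whether lowering Cav1 altered them. None of the 38 genes was called by limma, as with 0% of all genes, and none had an unadjusted p under 0.05, against 1189 genes (4.96%) of all. The median log2 difference was -0.03, against -0.04 over all genes, with 15 genes above 0 and 23 below. The largest differences were 0.27 for Gins3 (SE 0.28, 95% interval -0.37 to 0.91), where control-siRNA array 1 was low, and -0.26 for Pola1 (SE 0.18, 95% interval -0.67 to 0.14). Without control-siRNA array 1 the Gins3 difference was -0.04. The marker genes of the set had differences of 0.15 for Mcm2 (95% interval -0.40 to 0.69) and -0.08 for Rrm2 (-0.55 to 0.39).

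**Figure D3:**
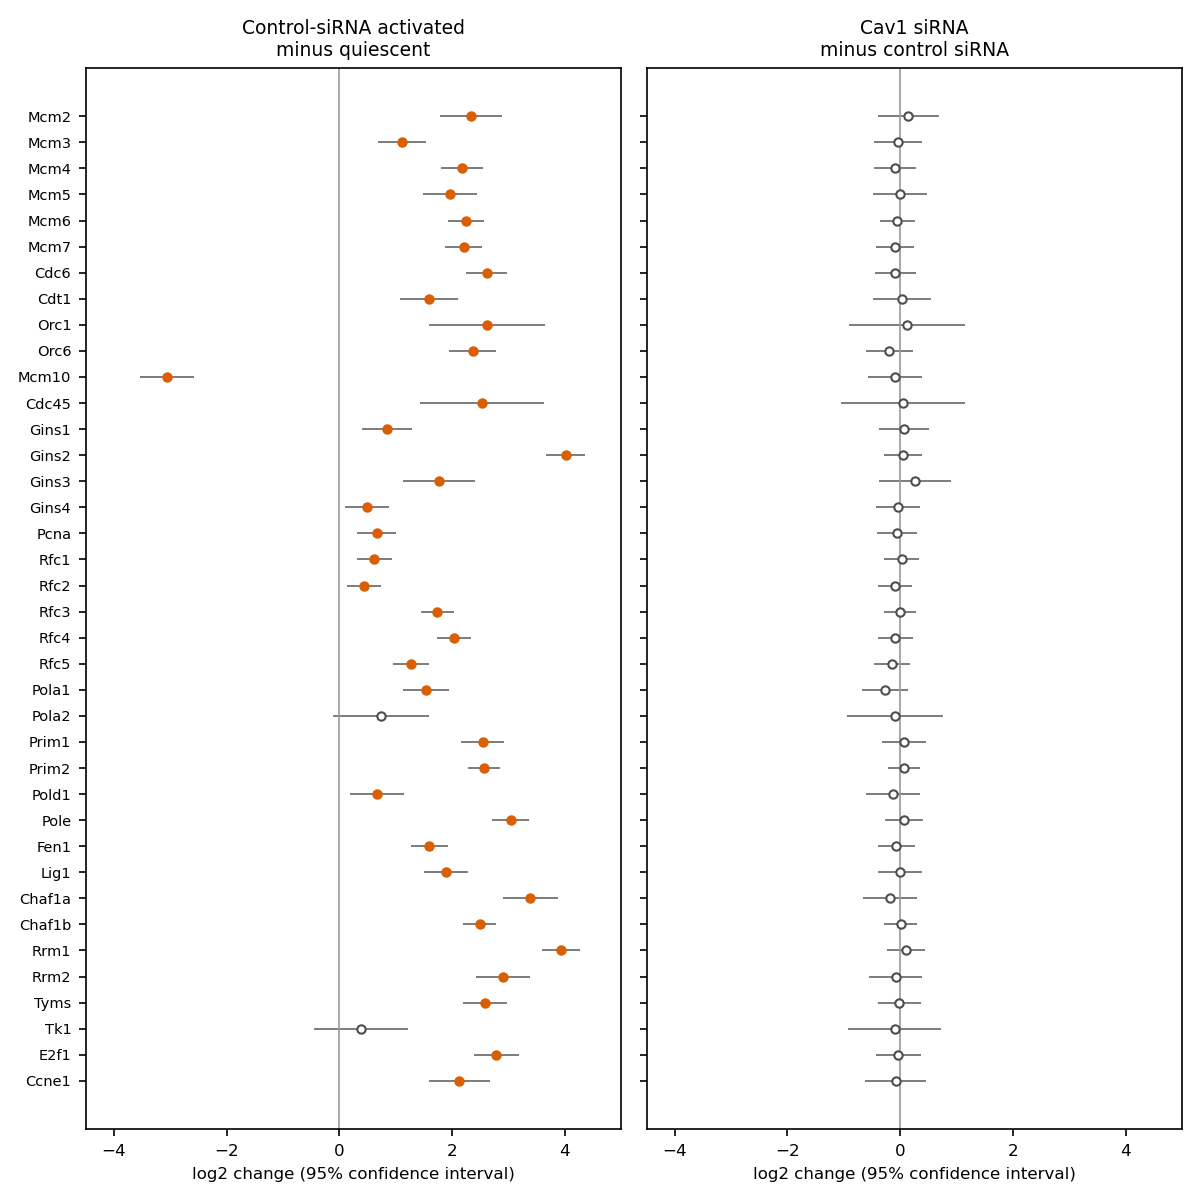
Points give the log2 difference of each of the 38 genes and bars its 95% confidence interval, on the left for control-siRNA minus quiescent cells and on the right for Cav1-siRNA minus control-siRNA cells, with filled points for an adjusted p under 0.05. On the left 36 points are filled and reach 4.01 for Gins2 and -3.06 for Mcm10, and on the right none is filled and no point lies beyond 0.27 from 0.

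The intervals below rest on the spread between these arrays, which may be technical, so they do not bound the effect of Cav1 across animals or cultures. The 95% interval lay within 1 log2 unit on either side of 0 for 36 of the 38 genes and within 0.5 for 23, and the widest was that of Cdc45, from -1.06 to 1.15. In a fit of the activated groups alone, whose spread is smaller, it lay within 1 unit for all 38 and within 0.5 for 36, the exceptions being Pola1 (down to -0.67) and Gins3 (up to 0.95). In 3 genes each Cav1-siRNA level was below each control-siRNA level (14% of all genes), and in none was it above (8.61%). Those genes were Orc6 (3.59, 3.70 and 3.69 against 3.98, 3.74 and 3.83), Rfc4 and Rfc5, with differences of -0.19, -0.08 and -0.15. The second probe of Pola1 had levels of -0.63, -1.56 and -1.10 with Cav1 siRNA and -0.43, -0.51 and -0.41 with control siRNA, a difference of -0.64 with an unadjusted p of 0.0301 and an adjusted p of 0.98. Within slide 2, which held 2 control-siRNA and 3 Cav1-siRNA arrays, no gene of the set was called. Cdc6 had a difference of -0.20 there, with an unadjusted p of 0.0473 and an adjusted p of 0.354 in limma.

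Against quiescent cells, the Cav1-siRNA cells had 35 genes called higher (40.4% of all genes) and 1 lower (27.2%), with a median log2 difference of 2.04 against 0.27 over all genes. This comparison shares the quiescent arrays with the one above. The differences were 2.48 for Mcm2, 2.82 for Rrm2, 4.07 for Gins2, 4.03 for Rrm1 and -3.16 for the brightest probe of Mcm10, beside 2.33, 2.90, 4.01, 3.93 and -3.06 in control-siRNA cells. Pola2 and Tk1 were again not called. The smallest called differences were not steady here, since Rfc2 lost its call in 18 of 22 alternatives, Gins4 in 17 and Pold1 in 13. With the slide as a block, a fit that links the slides through control-siRNA array 1, the median was 2.11 against 0.22 over all genes. Gins1, Gins4, Pcna, Rfc2 and Pold1 lost their calls in that fit.

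Other genes of the same processes were read from the fit across all genes, in which 42.1% of genes were called higher and 26% lower in control-siRNA than in quiescent cells, with a median log2 difference of 0.32. The counts of the lists below stand beside that background. Of 16 further genes of origin licensing and firing, 12 were higher and 2 lower in control-siRNA than in quiescent cells, with a median log2 difference of 1.36. Cdc7, the kinase that fires origins, rose by 2.93 (SE 0.16), Ticrr, which brings Cdc45 to origins, by 2.76 (SE 0.23) and Wdhd1, which couples helicase and polymerase alpha, by 2.65 (SE 0.14). Under the other scalings and background corrections Ticrr and Wdhd1 were as small as 1.44 and 1.61, both still called. Mcmbp, a binding partner of the Mcm proteins, fell by 0.47 (SE 0.17, adjusted p = 0.0329) and Orc3, an origin recognition subunit, by 0.46 (SE 0.16, adjusted p = 0.0282), though another Orc3 probe was higher by 0.57. Neither lower call held when arrays were scaled to their median, where the list had 12 higher and 0 lower.

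Of 24 further genes of the fork and of strand maturation, 16 were higher and 2 lower, with a median of 1.04, or 0.85 with the gene of no signal above background on any quiescent array set at its bound. Top2a, the topoisomerase that untangles copied DNA, rose by 3.67 log2 units (SE 0.31), Chtf18, part of an alternative clamp loader, by 3.63 (SE 0.22) and Pole2, a polymerase epsilon subunit, by 2.69 (SE 0.16), with 0.20 for another Pole2 probe. Chtf18 and Pole2 were as small as 2.46 and 1.84 under those alternatives, both still called. Clspn, the checkpoint adaptor claspin, was at least 1.18-fold higher by its bound, and its fitted log2 difference ran from -0.29 to 1.57 over the other scalings and background corrections. Rnaseh2c, a subunit of the RNase that removes ribonucleotides from DNA, fell by 0.89 (SE 0.17) and Pold3, a polymerase delta subunit, by 0.63 (SE 0.15), the latter not called with median scaling. Of 12 measured genes of chromatin copying, 9 were higher and 1 lower, with a median of 1.13. Uhrf1, which brings the maintenance methyltransferase to new DNA, rose by 3.95 (SE 0.23), the histone chaperone Asf1b by 2.17 (SE 0.19) and the nucleosome assembly gene Nap1l1 by 1.64 (SE 0.12). Rbbp4, the small histone-binding subunit of the Chaf1a complex, fell by 0.90 (SE 0.20), while another probe of it gave 0.37 in the other direction.

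Of 28 further genes of nucleotide synthesis, 13 were higher and 5 lower, beside 42.1% and 26% of all genes, with a median log2 difference of 0.45 against 0.32 over all genes. Mthfd2, a mitochondrial folate enzyme, rose by 2.93 (SE 0.20), Ctps, which makes CTP, by 2.82 (SE 0.19) and Dut, which clears dUTP, by 1.72 (SE 0.12). Dctd, the deaminase that feeds thymidylate synthase, was above background on no quiescent array and was at least 6.37-fold higher, with a fitted log2 difference from 0.86 to 4.36 over the other scalings and background corrections. Among the lower genes were the serine hydroxymethyltransferases Shmt1 (-4.09, SE 0.33) and Shmt2 (-1.09, SE 0.27), which supply folate carbon units, Cmpk1 (-1.35, SE 0.16), a pyrimidine nucleotide kinase, and Ppat (-1.16, SE 0.20), which begins purine synthesis. Shmt1 levels were 1.47, 0.08 and 1.35 in quiescent and -3.36, -3.01 and -3.02 in control-siRNA cells. The hepatocyte markers given above were also lower on the same control-siRNA arrays, and a link to any gene of this list was not tested.

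Of 32 genes that control G1 and S phase, 21 were higher and 4 lower, with a median of 0.96. The inhibitors Cdkn2a and Cdkn2b rose by 7.94 (SE 0.25) and 5.58 (SE 0.25) log2 units, and Ccna2, the cyclin of S phase, by 4.14 (SE 0.32). E2f2, a relative of E2f1, fell by 1.22 (SE 0.14), Rb1, the E2F-binding retinoblastoma gene, by 0.79 (SE 0.16) and its relative Rbl2 by 0.51 (SE 0.17), which was not called with median scaling. Cdkn1c, an inhibitor of cyclin-dependent kinases, was above background on no control-siRNA array and was at least 402-fold lower there, with a fitted log2 difference from -9.43 to -5.76 over the other scalings and background corrections. Under the other scalings and background corrections the differences of Cdkn2a and Cdkn2b were as small as 6.61 and 4.61, both still called. All 12 mitotic genes taken as a reference were higher, with a median of 3.77, among them Ccnb1 by 4.97 (SE 0.27), Bub1 by 4.56 (SE 0.36) and Cdk1 by 4.47 (SE 0.18), the last pair still called at their smallest, 2.96 and 3.34. Between Cav1-siRNA and control-siRNA cells no gene of these 6 lists was called by limma, and 3 had an unadjusted p under 0.05, Asf1a (-0.33), Cdkn2c (-0.54) and E2f2 (-0.40).

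**Figure D4:**
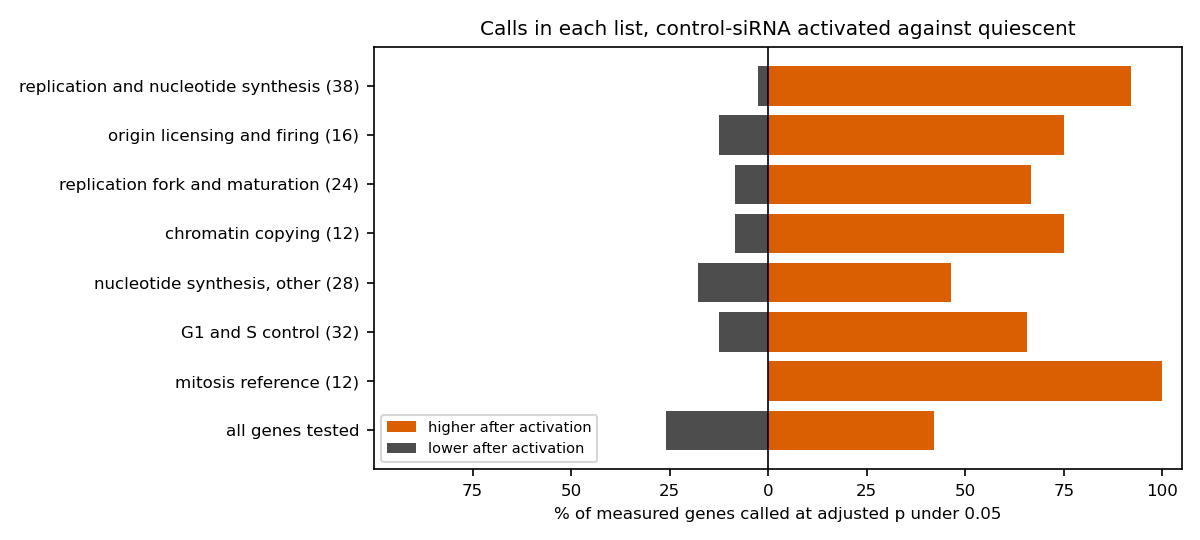
Bars give the percentage of measured genes of each list called higher (orange, right of 0) or lower (grey, left of 0) in control-siRNA than in quiescent cells at an adjusted p under 0.05, with the number measured in brackets and all 23965 genes in the lowest bar. The set described here has 35 of 38 genes higher, the mitotic reference 12 of 12 and the other genes of nucleotide synthesis 13 of 28, beside 42.1% of all genes.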

How the data were processed

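Agilent Feature Extraction 10.7.1.1 produced the spot values of the 9 arrays, per the submitters' processing notes. The deposited values are processed signals, an intensity per spot on a linear scale after background subtraction and not scaled across arrays, per the file headers. The file headers place probes on mm9, promoter windows are on GRCm38.p6, and the builds were not mixed. Log2 signals were set relative to the array's 75th percentile (control spots left out), outlier spots were dropped and the rest averaged per probe. Probes entered the fit if, on all 3 arrays of some group, a share of 0.5 or more of their spots was well above background, and the brightest kept probe stood for its gene. Gene names came from the files, from RefSeq accessions (32994 probes) and from unique synonyms (520 probes). No spot of the set was saturated. All 9 arrays were fitted with limma 3.58.1 (R 4.3.3, data.table version 1.17.8; figures with matplotlib 3.10.9 in Python 3.11.15), two-sided, with Benjamini-Hochberg adjustment over 23965 genes and calls at an adjusted p under 0.05. The number of arrays limits the precision. A gene above background on no array of a group has a bound, against the lowest signal above background on those arrays or its own where higher.

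The fit was also run on simulated arrays with independent noise of equal spread in all groups. The real groups differ in spread and share slides, so that run says nothing on the calls made here. The genes of the set, the lists, the markers and the tests were chosen with earlier results of these data known. All genes of the set are named. Of each further list, up to 3 called genes of largest change per direction, with signal above background on all arrays compared, are named, with those that go against their list and those given as bounds, and 1 gene of these lists is not reported here by name. Alternatives covered scaling, background correction, the series-wide deposited values (the same intensity per probe), the filter, the choice of probe, the groups in the fit, the slide, array weights, the replicate number and leaving out each array.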

Additional observations from a re-analysis of the deposited data

How the results depend on the processing

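Of the 38 genes, 22 kept call and direction between control-siRNA and quiescent cells in all 23 alternatives, 14 lost the call in at least 1 (Gins4, Rfc2 and Pold1 in several), Pola2 gained it and Tk1 changed sign. Tk1, called in neither comparison, ran from -0.12 (without quiescent array 2) to 0.69 in control-siRNA and from -0.22 to 0.59 in Cav1-siRNA cells on leaving out 1 array. The median difference of the set was 2.23 with arrays scaled to their median, 1.72 with normexp and the 75th percentile, 1.66 with normexp and quantile scaling and 1.97 with the mean of the kept probes or with every kept probe. In Cav1-siRNA against quiescent cells it was 2.30, 1.82 and 1.74 under the first 3 of these. In control-siRNA against quiescent cells, scaling to the median moved the median of all genes from 0.32 to 0.47. The set minus all genes stayed between 1.52 and 2.25 there over all alternatives, and between 1.61 and 2.38 in Cav1-siRNA against quiescent cells. Within slide 1, 23 genes of the set and 7615 of all genes were called, where 36 and 16328 were otherwise, a fit with 4 arrays. With the slide as a block, 10141 of all genes were called between Cav1-siRNA and quiescent cells, and the cause was not tested. Averaging its probes put Mcm10 at -1.07, and the majority rule over probes gave it no call.

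Leaving out 1 array gave 33 to 36 called genes of the set in control-siRNA and 33 to 35 in Cav1-siRNA against quiescent cells, 14589 to 16823 and 14495 to 16781 of all genes, and a median of 1.96 to 2.13 in control-siRNA cells. Between the siRNA groups no gene of the set was called in any of the 23 alternatives. The median there was 0.076 with median scaling. All-gene calls rose from 0 to 7 (normexp and the 75th percentile), 5 (normexp and quantile scaling), 6 (above background on all 9 arrays), 5 (only these 2 groups), 656 (array weights) and at most 2 on leaving out 1 array, and the cause was not tested. Gins3 changed from 0.27 to -0.044 with the slide as a block, within slide 2 and without control-siRNA array 1. These are the same estimate, since that array is the only one of these groups on slide 1. The Gins3 difference was -0.015 with array weights and as high as 0.44 on leaving out 1 other array.

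Deviations of arrays of equal number had correlations of -0.055 to -0.019 for control-siRNA with quiescent arrays and -0.114 to 0.173 between the siRNA groups. Arrays of unequal number were not set beside them, so these values cannot decide whether the numbers mark pairs. The main fit did not take the numbers as pairs. With the replicate number as a block the differences were unchanged. Gins4 then lost its call in control-siRNA against quiescent cells, and Gins4, Rfc2 and Pold1 lost theirs in Cav1-siRNA against quiescent cells. No gene of the set was called between the siRNA groups. Limits are 3 arrays per group, the quiescent group on 1 slide, other cell types in its RNA, and dim quiescent signal for Orc1, Cdc45 and Ccne2.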
